A study of Mus musculus with 2 samples.

Results

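Transcripts of 10 genes of the Notch pathway and the segmentation clock were followed in the posterior part of mouse embryos with reduced Cdx function. They were taken by name, or by the current symbol of their accession: the ligand genes Dll1 and Dll3, the modifier gene Lfng, the receptor genes Notch1 and Notch2, and the target genes Hes1, Hes5, Hes7, Hey1 and Nrarp. All 10 were on the array, with 13 of its 41013 probes, and all 10 were among the 25848 genes detected. A gene counted as detected where the scanner software marked its probe well above local background on both arrays in the mutant pool, the wildtype pool or both.

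The mutant group was Cdx2+/-Cdx4-/-, with 1 intact copy of Cdx2 and no intact Cdx4, and the group it was set against was wildtype. Cdx2 and Cdx4 encode caudal-type homeodomain factors of the growing posterior axis. Embryos had 13 somites, the cut was placed by the newest somite border, and tissue of 7 embryos was combined for each genotype. The strain, the litters and any separate pools for the dye swap are not given in the labels. The comparison was therefore treated as 1 pool against 1 pool on 2 dual-colour arrays. The mutant pool was labelled with Cy5 for replicate 1 and with Cy3 for replicate 2. This design gives no p-value between genotypes. Each SD below is that of the 2 arrays and was taken to cover technical error only. A pool is bulk tissue, in which fewer cells of a type and less RNA per cell cannot be told apart.

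Notch is a receptor that is cut when a ligand on a neighbouring cell binds it, and its inner part then joins the DNA-binding protein Rbpj to switch on target genes. In the presomitic mesoderm, the tissue that is divided into somites, this signal turns on and off in waves. Hes7 represses its own gene and Lfng, and Lfng in turn modifies Notch. Dll1, Notch1, Hes1 and Hes5 also act in the neural tube, where the pathway holds progenitors back from becoming neurons, and Notch1, Hey1, Dll4 and Notch4 act in endothelium. The phase of the wave in each embryo is not given in the labels.

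Windows around RefSeq start sites in the GRCm38.p6 build, from 250 bases before to 50 bases after each start, were matched for 8 of the 10 members in 9 windows, and not for Hes1 and Hey1. The 4 windows here are shown because Dll1 was the member that passed the size rule, and because Hes5, Hes7 and Lfng were the members with the Rbpj motif, so that the motif can be read beside their values. Capitals mark every match, on either strand, to 6 motifs: TTTATG and TTTATT of caudal-type factors, GTGGGAA of Rbpj, CACNAG of Hes repressors, CACGTG of Hey and related factors, and AGGTGT of T-box factors. Dll1 has 2 windows on the minus strand: the one printed, at chr17:15376883-15377182, is the outermost start, and the other, at chr17:15375774-15376073, held none of the motifs. The Hes5 window lies at chr4:154960673-154960972 on the plus strand. The Hes7 window lies at chr11:69120203-69120502 and the Lfng window at chr5:140607091-140607390, both on the plus strand.
Dll1: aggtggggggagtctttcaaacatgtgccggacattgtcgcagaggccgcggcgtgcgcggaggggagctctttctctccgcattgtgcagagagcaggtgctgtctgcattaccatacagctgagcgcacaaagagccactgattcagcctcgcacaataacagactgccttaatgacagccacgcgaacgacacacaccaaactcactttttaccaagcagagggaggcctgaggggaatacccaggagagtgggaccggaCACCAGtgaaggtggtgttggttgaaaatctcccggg
Hes5: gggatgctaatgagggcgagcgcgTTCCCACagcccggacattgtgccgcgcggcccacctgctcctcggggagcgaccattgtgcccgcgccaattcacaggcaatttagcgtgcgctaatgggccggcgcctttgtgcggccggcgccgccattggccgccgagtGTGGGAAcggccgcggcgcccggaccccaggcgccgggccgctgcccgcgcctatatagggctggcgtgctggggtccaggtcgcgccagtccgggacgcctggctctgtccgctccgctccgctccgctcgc
Hes7: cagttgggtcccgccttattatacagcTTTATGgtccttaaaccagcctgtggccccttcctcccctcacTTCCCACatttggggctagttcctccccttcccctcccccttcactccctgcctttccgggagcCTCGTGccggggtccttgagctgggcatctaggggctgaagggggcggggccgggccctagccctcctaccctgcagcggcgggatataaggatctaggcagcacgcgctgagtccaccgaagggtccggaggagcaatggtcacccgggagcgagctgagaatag
Lfng: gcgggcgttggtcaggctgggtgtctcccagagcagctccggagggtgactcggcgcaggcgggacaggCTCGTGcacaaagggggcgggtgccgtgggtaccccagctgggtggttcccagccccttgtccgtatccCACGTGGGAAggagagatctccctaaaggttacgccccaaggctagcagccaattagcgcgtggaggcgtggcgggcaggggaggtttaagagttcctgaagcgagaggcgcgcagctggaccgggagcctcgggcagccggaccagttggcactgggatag

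The Hes5 window held the Rbpj motif in 2 places, those of Hes7 and Lfng held it in 1 place each, and it was not found in the windows of the other matched members. In Lfng it overlaps the Hey motif, so that both are written as a single run of capitals. Of 32851 RefSeq windows of this length, 6.38% held the Rbpj motif. The TTTATG form of the caudal motif was found in the Hes7 window alone among the members, against 11.9% of all windows. The other caudal form, in 19.6% of all windows, and the T-box motif, in 13.7%, were found in none of the members' windows. The Hes motif, in 42.5% of all windows, stood in the printed Dll1 window and in those of Hes7, Lfng, Notch1, Notch2 and Nrarp. The Hey motif, in 7.15% of all windows, stood in those of Lfng and Nrarp. A match describes the letters of these windows only.

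Of the 10 genes, Dll1 passed the size rule used here, a ratio of mutant over wildtype of 1.5-fold or more on each of the 2 arrays, and no member passed it in the other direction. Over all detected genes 0.209% were higher and 0.232% were lower by the same rule, together 0.441%. Notch1, Hes5, Dll3 and Nrarp had mean ratios from 1.23-fold to 1.34-fold and stayed short of the rule. At 1.2-fold on each array, a threshold chosen after seeing the data, 4 members were higher (Dll1, Notch1, Hes5 and Nrarp), beside 1.05% of detected genes, and 0 were lower, beside 1.63%. Hes1, at a mean log2 ratio of -0.16, was the 1 member below 0 by more than the spread between arrays of equally bright genes, 0.14. On replicate 2 alone Hes1, at -0.10, was within it, and 13.8% of detected genes had a larger absolute mean ratio. The mean ratios of Lfng, Notch2, Hes7 and Hey1 were within the spread of genes as bright as each. Over the members the median log2 ratio was 0.21 (0.20 for replicate 1 and 0.26 for replicate 2), beside 0.00 over all detected genes. The central 95% of mean log2 ratios over all detected genes ran from -0.29 to 0.24. Dll1, Notch1, Hes5, Dll3 and Nrarp lay above that range, and the other 5 members lay inside it.

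**Figure D1:**
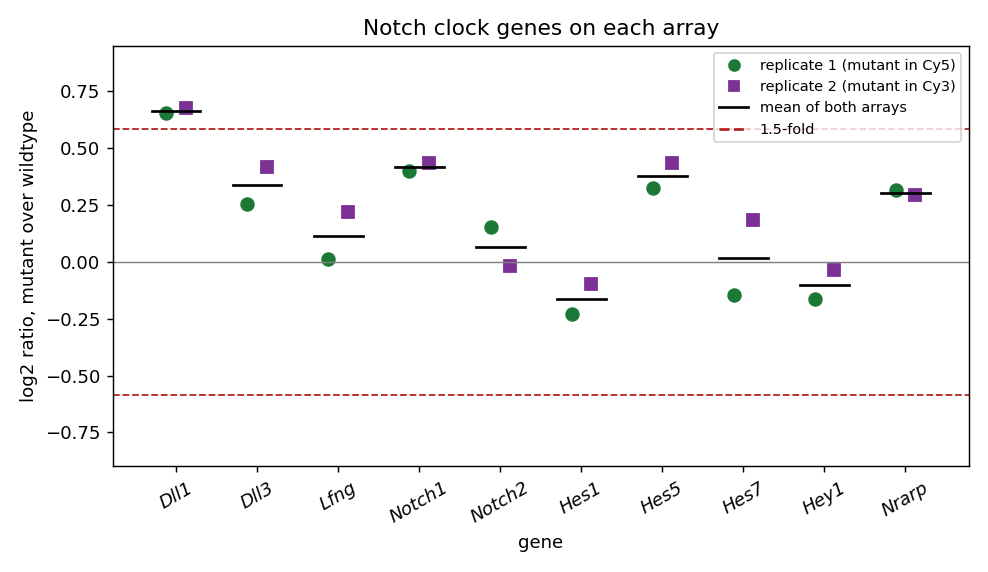
Log2 ratio of mutant over wildtype for each of the 10 genes (y axis) on replicate 1 (circles) and replicate 2 (squares), with the mean as a bar and 1.5-fold as dashed lines. Dll1, at 0.65 and 0.68, lies outside the dashed lines on both arrays, and Hes7, at -0.15 and 0.18, has the widest gap between arrays.

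Among the ligands, Dll1, a Delta ligand that activates Notch on neighbouring cells, had a normalized intensity of 1499.6 on replicate 1 and 1433 on replicate 2 in the mutant pool, against 953 and 896 in the wildtype pool. Both mutant readings lay above both wildtype readings. As log2 ratios, replicate 1 gave 0.65 and replicate 2 gave 0.68, a mean of 0.67 ± 0.02 (SD of 2 arrays), or 1.59-fold. The SD between arrays was 0.14 over detected genes of the same brightness, so the ratio exceeded it on each array. By mean ratio Dll1 stood at place 57 from the top of the 25848 detected genes. Its probe lies at chr17:14193752-14193811 in the files' coordinates, whose build the files do not name, as for every probe below. It was the single Dll1 probe on the array, so no second probe checks the value, and the call ended with median centring in place of loess, where replicate 1 gave a log2 ratio of 1.13 and replicate 2 one of 0.06.

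Dll3, a Delta-family protein that stays largely inside the cell and does not activate Notch on neighbours, had intensities of 2839.8 and 2993 in the mutant pool, against 2379 and 2242 in the wildtype pool. The mutant readings were above both wildtype readings here too. Its log2 ratios were 0.26 for replicate 1 and 0.42 for replicate 2 (0.34 ± 0.11, SD of 2 arrays, 1.26-fold), beside an SD of 0.23 between arrays for genes as bright. Dll3 reached 1.5-fold on neither array. Its single probe lies at chr7:17261563-17261622. The mean ratio of Dll3 was lower than that of Dll1 by more than either gene's own SD, a difference between the ligands that has no test here.

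Lfng, the fringe glycosyltransferase that modifies Notch and whose transcript cycles in the presomitic mesoderm, was the member nearest to the negative control spots. Its intensities were 74.6 and 85.8 in the mutant pool, against 73.9 and 73.7 in the wildtype pool, so the pools overlapped within 1 unit on replicate 1. Before processing, its Cy5 readings lay above the 95th percentile of 314 negative control spots on both arrays and its Cy3 readings lay below it on both. Replicate 1 gave a log2 ratio of 0.01 and replicate 2 one of 0.22 (0.12 ± 0.15), smaller than the SD of 0.18 between arrays of equally bright genes. A difference in Lfng was not detectable at this brightness. Its single probe lies at chr5:138027560-138027619, and its start-site window is among those shown above.

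**Figure D2:**
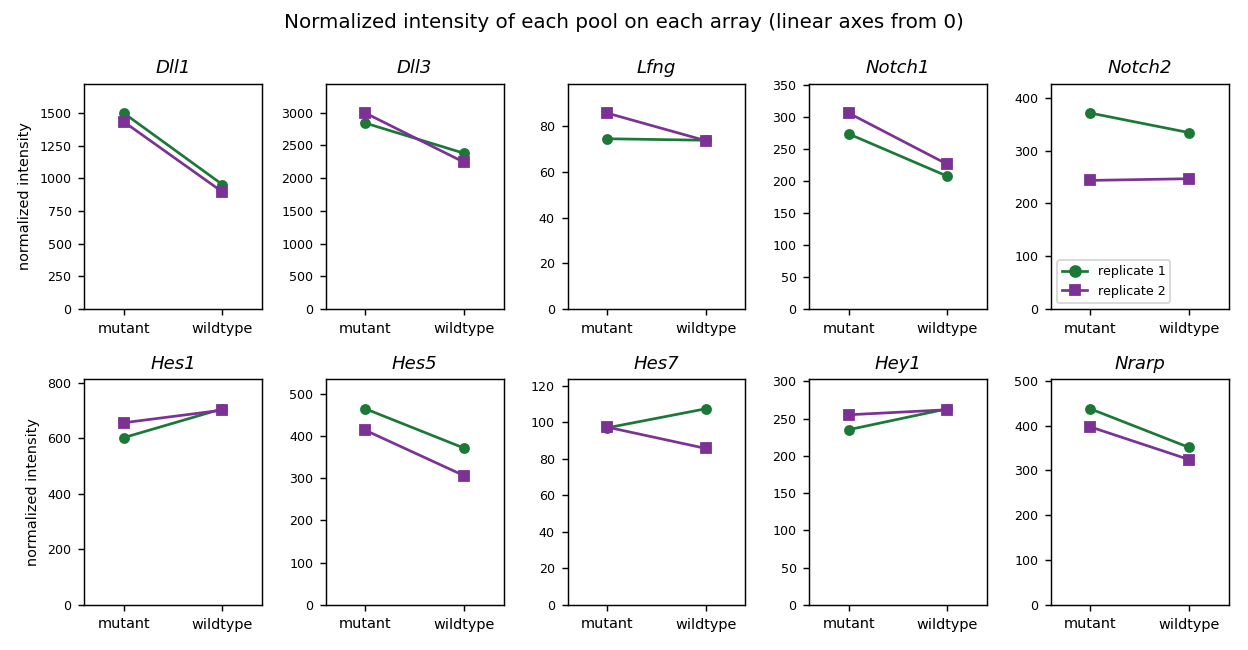
Normalized intensity (y axis, linear from 0) of the mutant pool (left) and the wildtype pool (right) for each gene, with replicate 1 as circles and replicate 2 as squares, joined within an array. The lines slope down to wildtype on both arrays for Dll1, Dll3, Notch1, Hes5 and Nrarp. Those of Lfng do so too, from 74.6 to 73.9 on replicate 1 and from 85.8 to 73.7 on replicate 2. Heights are not comparable between genes because each probe has its own brightness.

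Of the receptors, Notch1, which carries the signal in the presomitic mesoderm and in neural progenitors, had intensities of 273 and 306 in the mutant pool, against 207 and 226 in the wildtype pool. Both mutant readings were above both wildtype readings. On the log2 scale the ratio was 0.40 for replicate 1 and 0.44 for replicate 2 (0.42 ± 0.03, SD of 2 arrays, 1.34-fold), larger than the SD of 0.15 between arrays of equally bright genes. Notch1 was the next member after Dll1 by mean ratio, and 1.67% of detected genes had a larger absolute mean ratio. It passed at 1.3-fold on each array, where 1.29% of detected genes passed, and not at 1.5-fold. Its single probe lies at chr2:26441072-26441131.

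Notch2, a second receptor with broad expression, had 3 probes. The brightest, at chr3:98148977-98149036, gave intensities of 371 and 243 in the mutant pool, against 334 and 247 in the wildtype pool. The arrays differed from each other more than the pools did on either array. That probe had a log2 ratio of 0.15 for replicate 1 and of -0.02 for replicate 2 (0.07 ± 0.12). A dimmer probe at chr3:98147217-98147276 gave 0.05 and 0.09 on the log2 scale. The dimmest, at chr3:98131107-98131166, gave -0.30 and -0.03, and 2 of its 4 readings were above the 95th percentile of the negative control spots. The 3 probes thus disagreed in sign and none reached the size rule on either array.

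Among the targets, Hes5 and Nrarp lay above 0 on both arrays. Hey1 and the brighter Hes1 probe lay below 0 on both, and Hes7 differed in sign between the arrays. Hes5, a repressor switched on by Notch in neural progenitors, had intensities of 465 and 414 in the mutant pool, against 371 and 306 in the wildtype pool. Both mutant readings were above both wildtype readings. As log2 ratios, replicate 1 gave 0.32 and replicate 2 gave 0.43 (0.38 ± 0.08, SD of 2 arrays, 1.3-fold), beside an SD of 0.14 between arrays of equally bright genes. Nrarp, which encodes a small ankyrin-repeat protein that Notch induces and that limits Notch signalling, had 437 and 397 in the mutant pool, against 351 and 324 in the wildtype pool. Its mutant readings were also above both wildtype readings, with log2 ratios of 0.32 for replicate 1 and 0.29 for replicate 2 (0.30 ± 0.02, 1.23-fold). Neither gene reached 1.5-fold on either array. The Hes5 probe lies at chr4:152848232-152848291 and the Nrarp probe at chr2:25142905-25142964, each the single probe of its gene.

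Hes1, a repressor that Notch and other signals induce in many tissues, had intensities of 602 and 656 in the mutant pool, against 706 and 701 in the wildtype pool. Both mutant readings were below both wildtype readings. Its log2 ratios were -0.23 for replicate 1 and -0.10 for replicate 2 (-0.16 ± 0.09), beside an SD of 0.14 between arrays of equally bright genes. That probe lies at chr16:29927698-29927757. A dimmer Hes1 probe, at chr16:29926140-29926435, gave -0.22 and 0.01, so the sign below 0 was not shared by both probes on replicate 2. Hey1, a Hes-related repressor of vessels, somites and other tissues, had 235 and 255 in the mutant pool, against 263 and 262 in the wildtype pool. Its mutant readings were below both wildtype readings, with log2 ratios of -0.16 for replicate 1 and -0.04 for replicate 2 (-0.10 ± 0.09). The mean was within the SD of 0.15 between arrays of equally bright genes. The Hey1 probe lies at chr3:8700385-8700444.

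Hes7, the repressor at the core of the mouse segmentation clock, had intensities of 96.9 and 97.3 in the mutant pool, against 107 and 85.6 in the wildtype pool. The mutant readings lay between the wildtype readings. Replicate 1 gave a log2 ratio of -0.15 and replicate 2 one of 0.18 (0.02 ± 0.23), as wide as the SD of 0.23 between arrays of equally bright genes. A difference in Hes7 was not detectable against this spread. Its 4 readings before processing were above the 95th percentile of the negative control spots, and its single probe lies at chr11:68734711-68734770. Of the 3 members whose windows hold GTGGGAA, Hes5 was thus at 0.38, Lfng at 0.12 and Hes7 at 0.02 on the log2 scale.

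Taking signs over both arrays, 6 members were above 0 on both arrays, against 23.3% of all detected genes, and 2 were below 0 on both, against 24.4%. These signs rest on the loess step. With median centring, which leaves a dye trend with brightness in each array, the median of all detected genes was 0.15 on replicate 1 and -0.19 on replicate 2, and 2 members, Dll1 and Notch1, were above 0 on both arrays, against 7.85% of all genes. Of 7 alternatives that used both arrays, 4 changed the value of every member: the offset of 16, no background subtraction, median centring and the scanner software's ratio. Each member kept the sign of its mean under these 4. Taking the median over probes changed Hes1 and Notch2 alone, and the other 2 alternatives left every member's ratio as it was. The mean log2 ratio of Dll1 ranged from 0.59 to 0.70, that of Notch1 from 0.35 to 0.55, that of Hes5 from 0.33 to 0.46, that of Dll3 from 0.25 to 0.35 and that of Nrarp from 0.26 to 0.36. That of Hes1 ranged from -0.23 to -0.13 and that of Hey1 from -0.15 to -0.08. Lfng, from 0.09 to 0.41, moved most, its highest value coming from the scanner software's ratio.

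**Figure D3:**
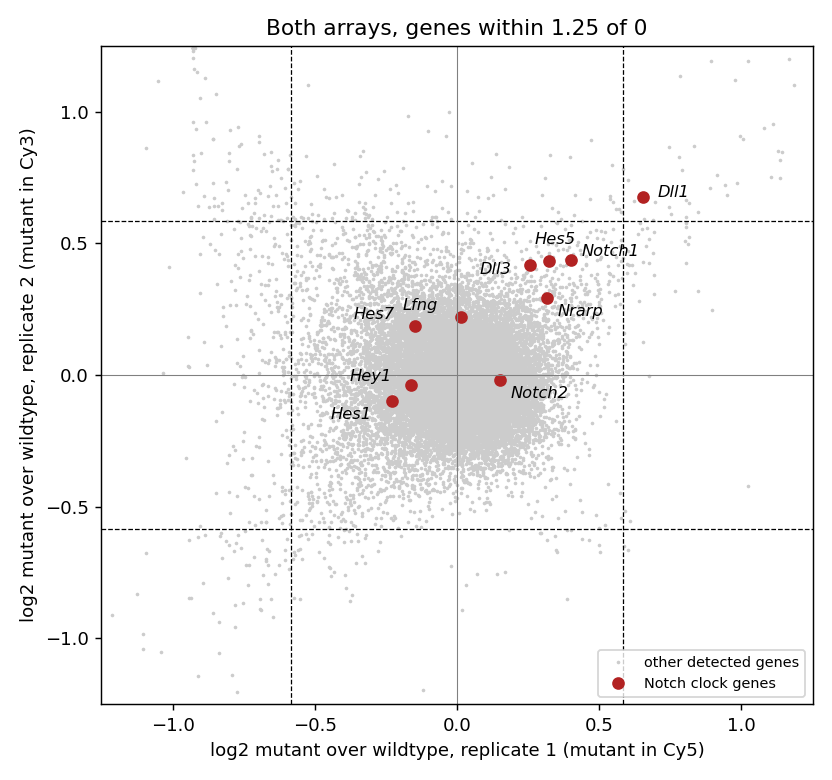
Log2 ratio of mutant over wildtype on replicate 1 (x axis) against replicate 2 (y axis) for detected genes near 0 (grey) and for the 10 members (red), with 1.5-fold as dashed lines. Dll1 lies beyond both dashed lines, Notch1, Hes5, Dll3 and Nrarp lie between 0 and 1.5-fold on both axes, and Hes7, Lfng, Notch2, Hey1 and Hes1 lie within the grey cloud.

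The scanner software gives its own ratio and its own error for each spot. By these, Dll1 had a log2 ratio of 0.68 with an error of 0.17 on replicate 1 and 0.73 with an error of 0.18 on replicate 2. Notch1 had 0.48 with an error of 0.22 and 0.63 with an error of 0.29. Hes5 had 0.36 with an error of 0.18 and 0.57 with an error of 0.23. Each of these ratios was larger than its spot's error on both arrays, as were those of Dll3 and Nrarp. Lfng had 0.01 with an error of 1.37 and 0.81 with an error of 2.54, and Hes7 had -0.43 with an error of 0.55 and 0.72 with an error of 1.4. The software's error for Lfng exceeded its ratio on both arrays, and for Hes7 likewise.

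**Figure D4:**
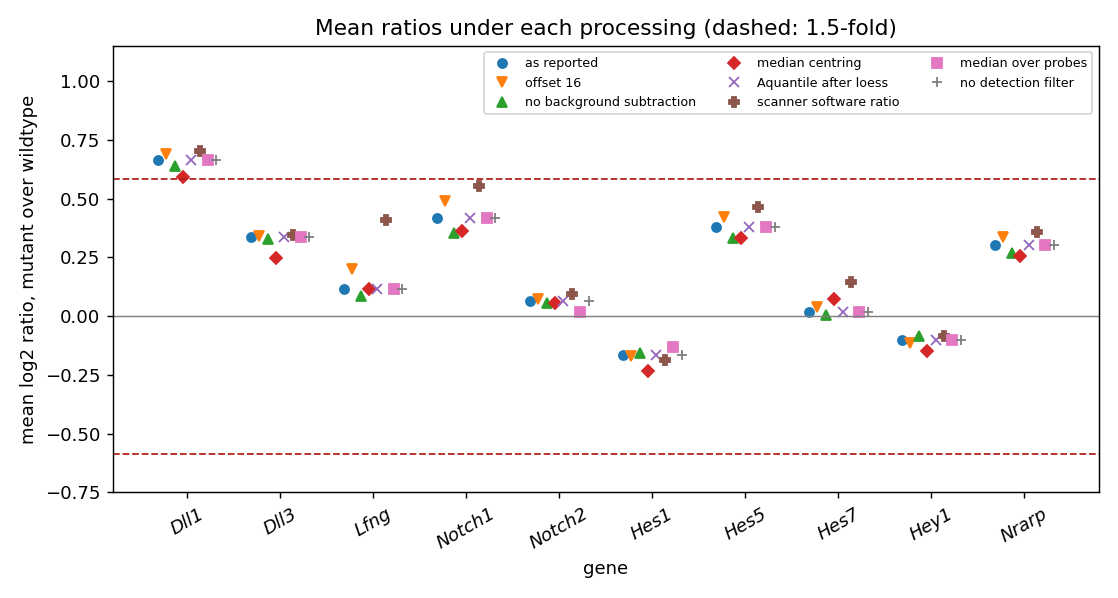
Mean log2 ratio of mutant over wildtype over both arrays (y axis) for each gene as reported and under 7 other ways of processing, of which 4 change every gene's value, with 1.5-fold as dashed lines. The points of each gene stay on the same side of 0, and Dll1 stays above 1.5-fold on the mean, between 0.59 and 0.70.

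The rest of the pathway was read from lists of its other parts. None of the 6 detected genes among the other ligands and receptors passed the size rule, with a median log2 ratio of -0.08. Jag1, a Serrate-type ligand, had 0.18 ± 0.04 and Dlk1, an atypical ligand-like protein, had 0.25 ± 0.11. Dll4 and Notch4, a ligand and a receptor of endothelium, had -0.30 ± 0.28 and -0.25 ± 0.18, each below 0 on both arrays; these 2 were named after their values were seen. None of 5 fringe and glycosyltransferase genes passed (median 0.03), and the fringe gene Mfng had -0.36 ± 0.00, below 0 on both arrays, while Eogt had 0.30 ± 0.18. None of 16 genes for receptor cleavage and ligand endocytosis passed, with a median of 0.05, and the ubiquitin ligase gene Itch had 0.20 ± 0.16 and Aph1b, of the gamma-secretase complex, had -0.20 ± 0.13.

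In the nuclear complex and its corepressors, none of 10 detected genes passed and the median was 0.09. Of these genes 6 were above 0 on both arrays, against 23.3% of all detected genes. Rbpj, the DNA-binding partner of Notch, had log2 ratios of 0.31 and 0.26 (0.29 ± 0.03), and the corepressor gene Tle4 had 0.31 and 0.25 (0.28 ± 0.05). These are close in size to Nrarp and below Notch1. None of 6 other Hes and Hey genes passed (median 0.01). Hes6, which in neurogenesis works against Hes1, had -0.46 on replicate 1 and -0.34 on replicate 2 (-0.40 ± 0.09), and Hes3 had 0.03 ± 0.02. Among the 66 detected genes of all the pathway and segmentation lists together, 4 were higher and 1 was lower by the size rule, beside 0.209% and 0.232% of all genes. The lists were chosen with earlier results of these data known, so these counts describe the lists and test nothing.

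The 4 higher genes were partners of the clock at the forming somite border, out of 8 detected, with a list median of 0.42, or 0.15 when genes below background were kept. Ripply2, a repressor that ends the presomitic state, had a log2 ratio of 2.11 ± 0.03. Pcdh8, a protocadherin, had 1.99 ± 0.07, Cer1, a secreted antagonist, had 1.78 ± 0.09 and Mesp1, a factor of the anterior presomitic mesoderm, had 0.70 ± 0.15. Mesp2, which sets the border downstream of Notch and Tbx6, had -0.02 ± 0.02, and Tbx6 had 0.06 ± 0.16; these 2 were named after their values were seen. Dll1 lay near Mesp1 in size and below the 3 others. Among 15 cyclic genes of the FGF and Wnt pathways, which oscillate with the clock as Notch genes do, Dusp4, a phosphatase of the FGF pathway, was lower (-0.84 ± 0.07) and 14 stayed short of the rule, the list's median being 0.06. With median centring the calls of Mesp1 and Dusp4 ended, and without background subtraction that of Mesp1 did.

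Markers of the tissues in the pools were set beside the members. The labelled tissue held all 5 presomitic and all 6 tailbud markers, none past the size rule, while Otx2 of the head was not well above background. The summed intensity of the presomitic list, to which Dll3 and Hes7 belong, was 5140.3 and 5111 in the mutant pool, against 4757 and 4169.8 in the wildtype pool. Dll3 alone gave 2839.8 and 2993 in the mutant pool, against 2379 and 2242 in the wildtype pool. The sum is therefore no measure of presomitic tissue apart from the members. The list's 3 genes that are no members lay between -0.12 and 0.08, with Msgn1 at -0.12 ± 0.03. The tailbud list had a median log2 ratio of -0.05. T had -0.49 ± 0.03 and Wnt3a -0.46 ± 0.05, both short of the size rule, and the other 4 genes, Fgf8, Nkx1-2, Evx1 and Cdx2, lay between -0.05 and 0.10. The list's summed intensity, 6346 and 6496 in the mutant pool, against 8611 and 8720.4 in the wildtype pool, is carried mostly by T, its brightest probe.

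In the neural tube list 1 of 6 detected genes passed the size rule, Sox2 (higher, 0.81 ± 0.08, 1.75-fold). The sum was 2778 and 3109 in the mutant pool, against 2501 and 2718 in the wildtype pool. The list was mixed, with a median of 0.06 on replicate 1 and 0.31 on replicate 2. Irx3 had 0.46 and Neurog1 0.22, while Pax6 (-0.07) and Nkx6-1 (-0.09) lay below 0 on both arrays. Sox1 had 0.04 on replicate 1 and 0.70 on replicate 2. Neurog2 and Olig2 were not well above background. In the somite list 4 of 6 passed the size rule, all higher: Meox1 (2.12 ± 0.02), Tcf15 (2.02 ± 0.01), Foxc2 (1.35 ± 0.17) and Foxc1 (1.18 ± 0.02). The sum was 5077 and 5002 in the mutant pool, against 2951 and 3101 in the wildtype pool. Pax3 (0.02) and Meox2 (0.03) had opposite signs on the arrays, and Pax1 and Uncx were not well above background. The somite list's median was 1.27, or 0.66 when genes below background were kept. In the gut endoderm list 2 of 6 passed the size rule, both higher: Trh (1.98 ± 0.53) and Nepn (1.87 ± 0.09). The gut list's median was 0.23. Foxa2 had 0.33, Epcam 0.13, Cldn6 0.05 and Sox17 -0.04, and the signs of Cldn6 and Sox17 differed between the arrays. None passed in the blood list (4 detected, median -0.10) or the lateral plate list (5 detected, median -0.17). The part of neural, somite and gut tissue in the ratios of Dll1, Notch1, Hes5 and Nrarp was not tested. In the endothelium list all 10 detected genes lay below 0 on both arrays, against 24.4% of all detected genes. Cldn5 (-1.06 ± 0.21) and Sox18 (-0.70 ± 0.08) were past the size rule. The Sox18 call ended with median centring and without background subtraction, and the Sox2 call with median centring. The sum was 3246 and 2966 in the mutant pool, against 4716 and 4502 in the wildtype pool, and its part in the ratios of Hey1, Hes1, Dll4, Notch4 and Mfng was not tested.

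**Figure D5:**
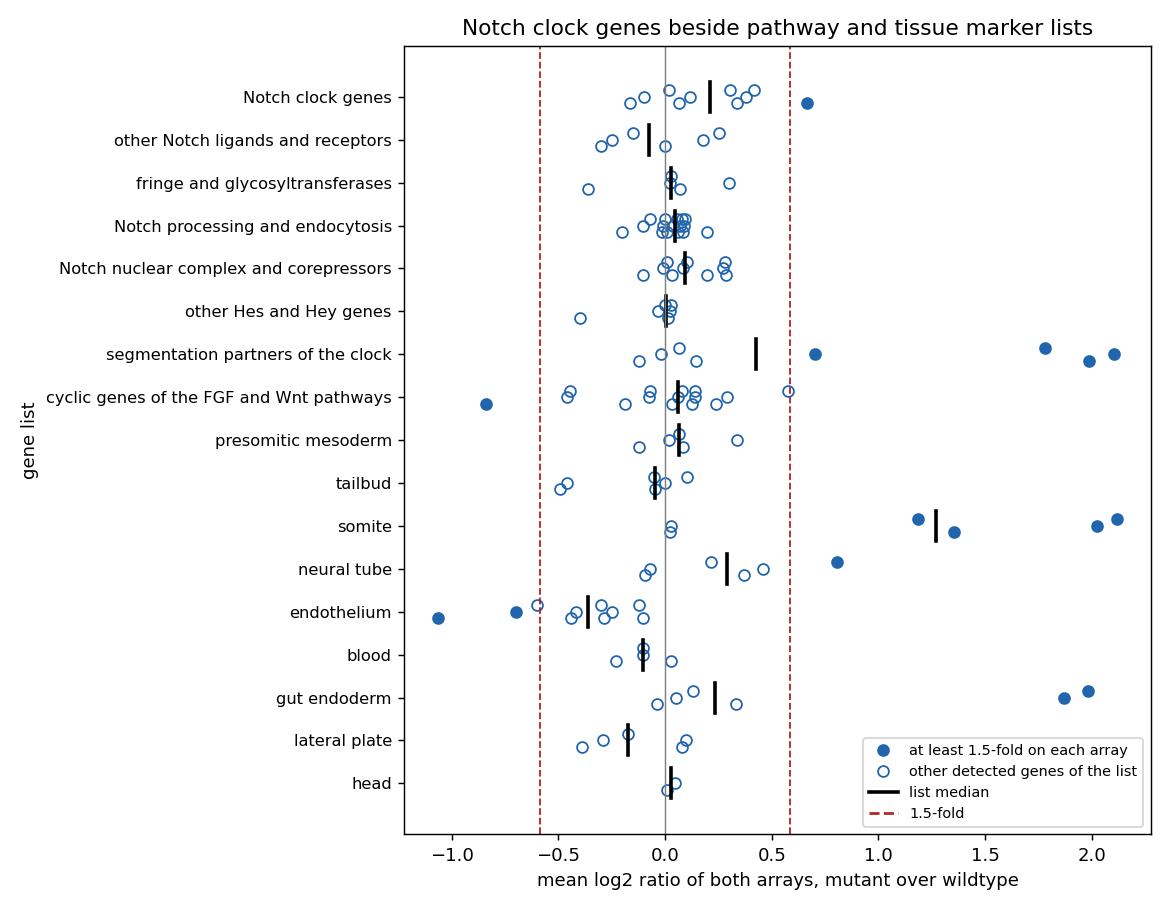
Mean log2 ratio of mutant over wildtype (x axis) for the detected genes of each list (rows), filled where a gene passed 1.5-fold on each array and open otherwise, with list medians as bars. The Notch clock genes, with a median of 0.21, hold 1 filled point, Dll1, while the somite list holds 4 filled points above 0 and the endothelium list lies wholly below 0.

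On both arrays, between 77.4% and 82.5% of gene spots were well above background in each pool. The pooled SD of the log2 ratio between arrays was 0.19 over detected genes, and their Pearson r, across genes that are not independent replicates, was 0.067. Cdx4, the gene absent from the mutant, had a log2 ratio of -2.52 ± 0.12, and the Cdx2 probe at -0.05 ± 0.09 does not check the genotype. None of the members' spots was saturated. The number of arrays limits the precision.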

How the data were processed

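RNA, treated as that of 1 pool per genotype, was measured on 2 dual-colour oligonucleotide arrays in a dye swap. The deposited intensity values are mean spot brightness in Cy3 and Cy5 and the local background median, not corrected, per the file headers. Also deposited is a log10 ratio of Cy5 over Cy3, spatially detrended and LOWESS-normalized by the scanner software as the file headers state, and the deposited error of that ratio covers 1 spot. Agilent's Feature Extraction is named as 9.5.3 in the submitters' processing notes and as 7.5.1 in the file headers.

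Background was corrected with normexp (limma 3.58.1, R 4.3.3, offset 50) and each array normalized by loess, with control spots at weight 0. An offset shrinks the ratios of dim genes. Ratios were turned to mutant over wildtype by the dyes in the labels, and intensities per pool were taken after Aquantile normalization. Non-uniform spots were left out (205 and 90). The brightest detected probe stood for a gene. Spread at equal brightness is the SD between arrays within 10 bins of mean intensity. Probes were named by RefSeq accession, symbol or synonym (19435, 3636 and 2974), 14411 kept the files' name and 557 matched several genes and were not named.

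The functions were tested on simulated dye-swapped arrays. The members and lists were chosen with earlier results of these data known. All members were described; from each list, genes past the size rule were named, otherwise the 2 detected genes whose smaller absolute ratio over the arrays was largest. With 2 arrays of 1 contrast, no gene was named for a like pattern. Alternatives changed the background step, the normalization, the ratio's source, the probe rule, the detection filter, the arrays used and the fold.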

Additional observations from a re-analysis of the deposited data

How the results depend on the processing

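Both pools share every array, so each ratio already compares them within an array. With each genotype treated as a single pool, no test was run. Members past the size rule numbered 1, Dll1, and 0 with median centring or at 2-fold, 2 at 1.3-fold (Dll1 and Notch1) and 4 at 1.2-fold (Dll1, Notch1, Hes5 and Nrarp), a threshold chosen after seeing the data, at which 694 of all detected genes passed. The count was 1 without either array. The members' median log2 ratio, 0.21 as reported, was 0.27 with an offset of 16, 0.35 with the scanner software's ratio, and from 0.20 to 0.26 on single arrays. Over all genes, 114 passed as reported, 43 with median centring, 355 with the software's ratio, 333 at 1.3-fold, 27 at 2-fold and from 379 to 467 on single arrays, which keep the dye effect. The higher genes' share of these calls was 47.4% as reported, 62.8% with median centring, 74.1% at 2-fold, 67.3% without replicate 1 and 19.7% without replicate 2, so that no balance of higher and lower genes can be read from it. The list medians of the other Hes and Hey genes and of the cyclic genes were -0.03 and -0.01 with median centring. The cause of these changes was not tested, apart from the fold thresholds, which change the counts by construction. Signal over background limits Lfng, Hes7 and the dimmest Notch2 probe.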
